A study of Mus musculus with 59 samples.

Results

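The genes described are the subunits of the mitochondrial respiratory chain and ATP synthase, 98 of the 21706 genes in the deposited tables. They were matched by symbol, and the set was chosen with earlier results of these data known. It holds 13 genes on the mitochondrial chromosome (mt-Nd, mt-Co, mt-Atp and mt-Cytb symbols) and 85 on nuclear chromosomes (Nduf, Sdh, Uqcr, Cox4 to Cox8 and Atp5 symbols). The respiratory chain passes electrons from NADH and succinate through complexes I, II, III and IV to oxygen and pumps protons across the inner mitochondrial membrane, and ATP synthase, complex V, uses the proton gradient to make ATP. Complexes I, III, IV and V are built from proteins of both genomes: the mitochondrial chromosome encodes core membrane subunits and is transcribed in the organelle as long precursor RNAs from both strands, whereas the remaining subunits are transcribed one by one in the nucleus. Complex II, succinate dehydrogenase, is wholly nuclear. The uterine luminal epithelium is the cell layer that an embryo first meets, and it is remodelled between mating and the time of implantation under oestrogen and progesterone.

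RNA was sequenced from 59 uterine samples of 29 female mice in 12 groups of tissue, day and genotype. Knockout females (epiERα-/-) carried 1 null and 1 floxed allele of Esr1, the gene of oestrogen receptor α, with Wnt7aCre, which acts in the uterine epithelium; control females (Esr1f/-) carried the same null and floxed alleles without Cre, so that every mouse had at most 1 working copy of Esr1 in any cell. All were virgin, about 2 to 6 months old and mated with males of an intact Esr1 genotype, and were taken on day 3.5 (D3.5) or day 0.5 (D0.5) after coitum. The kinds of sample were: luminal epithelium scraped after 30 min in 0.5% dispase (LE), a piece of the digested uterus taken before scraping (DU) and an undigested piece (U). LE came from 6 knockout and 4 control mice at D3.5 and from 7 knockout and 9 control mice at D0.5. DU came from 3 knockout and 3 control mice at D3.5 and from 3 knockout and 4 control mice at D0.5, and U from 5 knockout and 5 control mice at D3.5 and from 4 knockout and 6 control mice at D0.5. The same mouse number in different tissues is the same animal. RNA of each tissue was extracted as its own single batch, and a difference between tissues cannot be told apart from one between these extractions. In bulk RNA of this kind, fewer cells of a type and less RNA per cell cannot be told apart either.

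The libraries held 11.3 M to 108 M estimated counts (M, mega). Esr1 in LE was lower in knockout than in control mice with no overlap on either day: 52.1 to 73.2 CPM (counts scaled to each library's normalised size) in knockout and 104 to 162 CPM in control mice at D3.5, and 34.8 to 62.9 CPM in knockout and 110 to 273 CPM in control mice at D0.5. In U at D3.5 the library labelled knockout mouse 33 had the highest Esr1, with 212 CPM, against 123 to 149 CPM in the other 4 knockout and 135 to 195 CPM in 5 control mice. U also holds cells outside the epithelium, so Esr1 in U cannot check the genotype label, and mouse 33 gave no LE library. Libraries of LE varied more than those of DU or U, with a biological coefficient of variation of 0.437 in LE, 0.259 in DU and 0.342 in U. The LE library of control mouse 16 at D3.5 stood apart: it had the lowest depth of the 26 LE libraries (13.5 M) and the lowest summed level of the nuclear subunits.

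Of the 85 nuclear genes, 69 have a promoter sequence in the RefSeq-derived table of build GRCm38.p6 (250 bases before to 50 after the annotated start). The files were made on another build, GRCm39, so these coordinates are those of the reference only. Motifs known from promoters of respiratory genes were searched on both strands. The NRF1 motif GCGCANGCG was found in 20 of the 69 promoters (29.0%), against 7.03% of 27025 genes in the table. The ETS motif ACCGGAAG, bound by GABP, was found in 7 (10.1%, against 2.60%), and the YY1 motif AAGATGGCG in 7 (10.1%, against 1.64%). The ERR motif TCAAGGTCA was found in 2 (2.90%, against 0.466%) and the SP box GGGCGG in 28 (40.6%, against 38.2%). No promoter of these genes held the full palindromic oestrogen response element, which 20 genes of the table held (0.0740%), and 22 held none of the 6 motifs. These are matches of letters, not bound sites.

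Promoters are printed for genes on which the results turn: Cox7a2l and Cox5a, which moved in opposite directions between days in LE, and Sdhd, whose window holds 4 kinds of motif. All are written 5′ to 3′ on the gene's strand with the motif matches in capitals. Cox7a2l (chr17:83514284-83514583, minus strand) has 2 SP boxes. Cox5a (chr9:57520982-57521281, plus strand) has 2 SP boxes on the opposite strand, read here as CCGCCC. Sdhd (chr9:50603800-50604099, minus strand) has, in this order, an NRF1 match, an ETS match on the opposite strand, an SP box and an ERR match on the opposite strand.
Cox7a2l: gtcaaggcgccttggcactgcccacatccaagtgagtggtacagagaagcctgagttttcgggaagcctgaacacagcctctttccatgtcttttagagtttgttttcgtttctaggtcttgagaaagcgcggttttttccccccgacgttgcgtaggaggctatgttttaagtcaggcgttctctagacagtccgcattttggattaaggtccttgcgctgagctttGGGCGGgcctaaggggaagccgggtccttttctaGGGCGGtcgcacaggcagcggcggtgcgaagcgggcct
Cox5a: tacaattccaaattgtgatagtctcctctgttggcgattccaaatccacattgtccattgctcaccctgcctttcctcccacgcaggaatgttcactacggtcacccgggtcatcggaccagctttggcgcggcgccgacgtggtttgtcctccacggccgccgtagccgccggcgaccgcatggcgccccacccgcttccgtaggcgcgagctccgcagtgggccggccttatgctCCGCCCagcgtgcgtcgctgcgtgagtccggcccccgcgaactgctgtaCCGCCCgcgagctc
Sdhd: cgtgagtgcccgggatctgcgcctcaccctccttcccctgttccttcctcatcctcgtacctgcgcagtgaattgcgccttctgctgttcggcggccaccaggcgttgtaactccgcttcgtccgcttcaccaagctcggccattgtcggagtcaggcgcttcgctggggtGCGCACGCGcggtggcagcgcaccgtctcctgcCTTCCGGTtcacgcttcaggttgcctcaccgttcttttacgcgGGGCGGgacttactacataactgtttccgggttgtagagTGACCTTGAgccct

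Neighbouring mitochondrial genes share bases, and the reads from a shared stretch cannot be assigned to 1 gene. The longer overlaps on the same strand are printed with the shared bases in capitals, from GRCm38, plus strand. The end of mt-Atp8 and the start of mt-Atp6 share 43 bases (chrM:7927-7969), 21.1% of the length of mt-Atp8, shown within chrM:7887-8009. The end of mt-Nd4l and the start of mt-Nd4 share 7 bases (chrM:10167-10173), shown within chrM:10127-10213. mt-Atp6 and mt-Co3 share 1 base of the same strand, at position 8607, and mt-Nd5 and mt-Nd6 share 14 bases on opposite strands (chrM:13552-13565). The sources used here do not say whether the counting used strand, so reads of mt-Nd6 and of antisense RNA from its neighbours may not be separated. Nuclear copies of mitochondrial sequence are known in the mouse, and no source says how shared reads were assigned.
mt-Atp8/mt-Atp6: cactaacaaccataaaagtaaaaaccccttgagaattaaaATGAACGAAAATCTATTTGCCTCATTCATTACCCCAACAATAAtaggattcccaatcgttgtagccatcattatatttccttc
mt-Nd4l/mt-Nd4: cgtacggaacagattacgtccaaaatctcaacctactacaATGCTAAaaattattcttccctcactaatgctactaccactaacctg

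In all tissues the mitochondrially encoded RNAs were far more abundant per length than the nuclear ones. On the TPM scale, which corrects read number for transcript length, each of the 13 mitochondrial genes had a higher median than every nuclear member in LE, in DU and in U. In LE the median level fell in the order mt-Co1 (25005 TPM), mt-Atp6 (18515 TPM), mt-Co3 (12589 TPM), mt-Nd4l (11511 TPM), mt-Cytb (9453 TPM), mt-Nd3 (7826 TPM), mt-Nd6 (7095 TPM), mt-Nd4 (6514 TPM), mt-Nd1 (6394 TPM), mt-Co2 (4943 TPM), mt-Atp8 (3657 TPM), mt-Nd5 (3073 TPM) and mt-Nd2 (2889 TPM). Neighbours in this order overlapped widely over the 26 libraries. The mt-Atp8 level was 8.23% to 35.5% of the mt-Atp6 level over LE libraries. The mt-Nd4l level was 186% of the mt-Nd4 level in the median LE library, with a range of 74.4% to 210%. The transcripts of mt-Atp8 (204 bases) and mt-Nd4l (297 bases) are the shortest of the 13. A bias of TPM at short lengths was not tested, so the order is one of TPM values and may not be that of RNA amounts. The most abundant nuclear members in LE were Cox8a (764 TPM), the small subunit VIII of complex IV, and Atp5md (668 TPM), a small membrane subunit of ATP synthase. The middle of the members' medians was 7095 TPM for mitochondrial and 135 TPM for nuclear genes in LE, 3674 and 153 TPM in DU, and 3958 and 171 TPM in U.

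The nuclear genes spanned a wide range. Tissue-restricted isoforms of complex IV were near or at the floor: Cox8c was listed at 0 in 58 of the 59 libraries, the pseudogene Cox5b-ps in 45, Cox7b2 in 36, Cox8b in 25 and Cox6a2 in 19. Cox4i1, the ubiquitous isoform of subunit IV, had a median of 660 TPM in LE, 710 TPM in DU and 781 TPM in U, whereas Cox4i2, the isoform known from lung and from low oxygen, had 0.387 TPM in LE, 6.60 TPM in DU and 7.30 TPM in U. Cox6b2, known from testis, was likewise lowest in LE, with 3.82 TPM in LE, 29.2 TPM in DU and 28.6 TPM in U, beside 352, 345 and 427 TPM for Cox6b1. Of the subunit VIIa family, Cox7a1, the heart and muscle isoform, had 6.28 TPM in LE, Cox7a2 160 TPM and Cox7a2l, a factor that joins complexes III and IV into supercomplexes, 240 TPM. The Cox7a2l level was 141% of the Cox7a2 level in the median LE library, with a range over LE libraries of 56.7% to 808%. The 4 subunits of succinate dehydrogenase lay close together in LE, at 80.7 TPM for Sdha, 78.5 TPM for Sdhb, 89.5 TPM for Sdhc and 127 TPM for Sdhd.

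**Figure D1:**
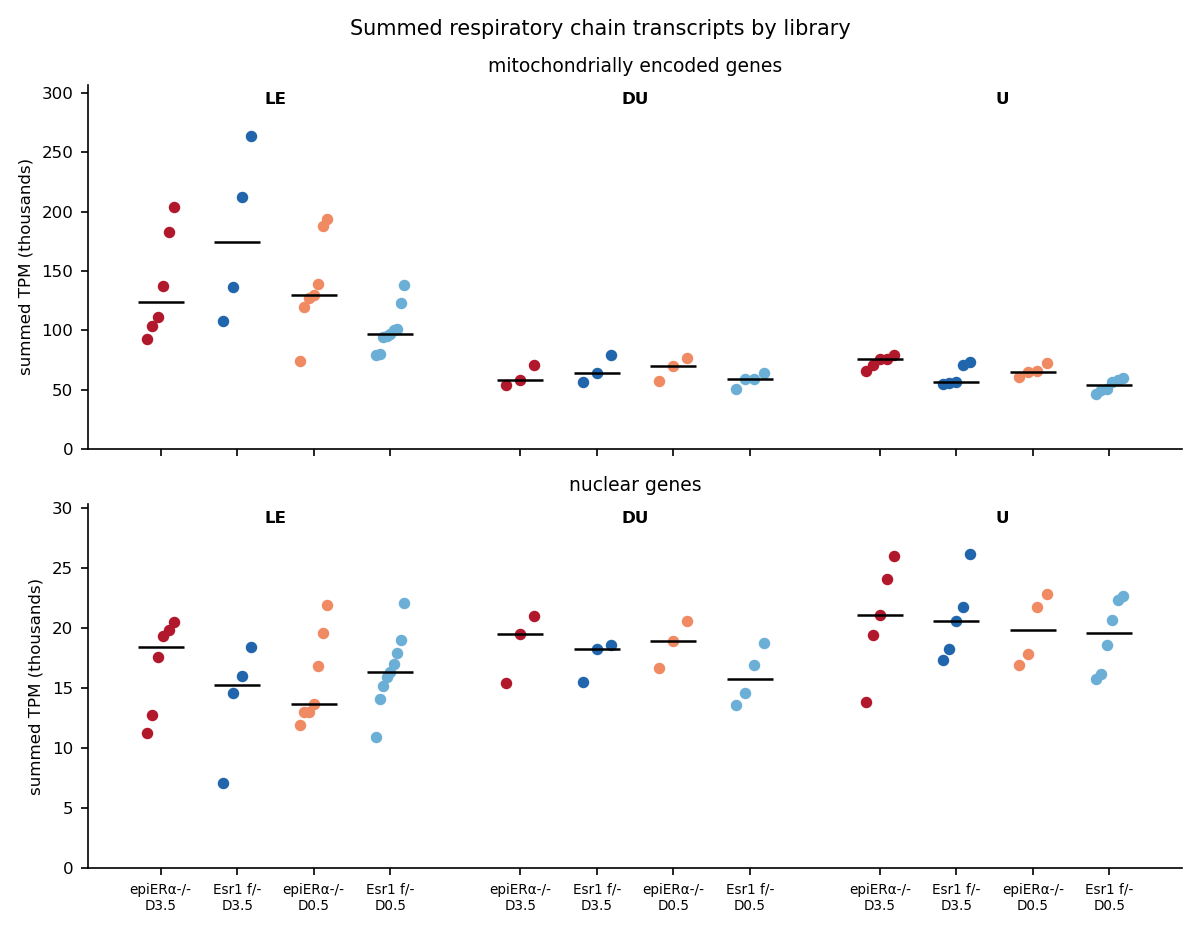
Summed TPM of the 13 mitochondrial and the 85 nuclear respiratory genes in each of the 59 libraries, by tissue, day and genotype; each point is a library and each line a group median. Most LE libraries lie above the DU and U libraries for the mitochondrial sum and they spread most in control mice at D3.5, where control mouse 16 has the highest mitochondrial sum (263195 TPM) and the lowest nuclear sum (7135 TPM).

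In control LE at D3.5, 10 of the 13 mitochondrial genes had risen relative to D0.5, among them all 7 of complex I and mt-Cytb, while 18 of 79 tested nuclear genes had fallen and 3 had risen. The median log2 fold change was 1.13 over the mitochondrial genes, -0.34 over the nuclear genes and 0.00 over all 15601 genes tested. Together 31 of the 92 members tested were called (33.7%, called meaning an adjusted p under 0.05), against 44.0% of all genes tested, 21.2% higher and 22.8% lower, so the share of nuclear genes called lower (18 of 79) was near the background. The 6 members not tested in LE (Cox8c, Cox7b2, Cox4i2, Cox5b-ps, Cox6a2 and Cox8b) had too few counts.

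Complex I holds 7 mitochondrial core subunits, which form its proton-pumping membrane arm. mt-Nd3 measured 2547, 753, 476 and 2367 CPM in control mice 11, 14, 15 and 16 at D3.5, against a lowest value of 430, a median of 578 and a highest of 718 CPM in 9 control mice at D0.5 (log2 fold change 1.41 ± 0.29 SE, adjusted p = 0.000252). mt-Nd1 measured 10240, 4982, 3003 and 13058 CPM in the same D3.5 mice and 2179, 2768 and 4271 CPM (lowest, median, highest) at D0.5 (1.36 ± 0.29, adjusted p = 0.000351). In both genes mice 11 and 16 were highest and mouse 15 lay within the D0.5 range. mt-Nd2 rose by 1.32 ± 0.25 (adjusted p = 0.000117), mt-Nd4 by 1.24 ± 0.27 (0.000455), mt-Nd4l by 1.15 ± 0.29 (0.00192), mt-Nd6, the single subunit transcribed from the light strand, by 1.13 ± 0.28 (0.00166) and mt-Nd5 by 0.80 ± 0.29 (0.0271). Of 36 accessory complex I subunits of nuclear origin tested, 2 rose and 3 fell (median -0.20). Ndufc2, which rose, measured 256, 161, 104 and 82.6 CPM in mice 11, 14, 15 and 16 at D3.5 and 52.4, 69.8 and 85.0 CPM at D0.5 (1.13 ± 0.22, adjusted p = 0.000130). Ndufb8, the other that rose, measured 137, 125, 109 and 77.3 CPM at D3.5 and 36.5, 52.2 and 80.4 CPM at D0.5 (1.06 ± 0.22, adjusted p = 0.000322). In both, mouse 16 alone fell within the D0.5 range. Ndufa1, a small subunit needed for complex I assembly, fell, with 16.1, 26.0, 11.2 and 9.87 CPM at D3.5 and 24.1, 31.6 and 53.0 CPM at D0.5 (-1.12 ± 0.30, adjusted p = 0.00341).

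In complex II, Sdhb, the iron-sulphur subunit, and the membrane anchors Sdhc and Sdhd fell at D3.5 in control LE. Sdhc measured 77.7, 70.4, 59.3 and 46.0 CPM in mice 11, 14, 15 and 16 at D3.5 and 76.8, 101 and 129 CPM at D0.5 (-0.66 ± 0.21, adjusted p = 0.0101). Mouse 11 overlapped the lowest D0.5 value and mice 14, 15 and 16 did not. Sdhb changed by -0.63 ± 0.24 (adjusted p = 0.0361) and Sdhd by -0.52 ± 0.21 (0.0438), and the flavoprotein Sdha was not called (-0.24 ± 0.15, 0.218). In complex III, mt-Cytb, cytochrome b, measured 16521, 9185, 5911 and 19643 CPM at D3.5 and 4132, 5197 and 5864 CPM at D0.5 (1.34 ± 0.26, adjusted p = 0.000137). It was the 1 mitochondrial gene whose days did not overlap. Its nuclear partner Uqcrc2, a core protein of the complex, fell, with 126, 124, 97.3 and 79.3 CPM at D3.5 and 117, 159 and 197 CPM at D0.5 (-0.56 ± 0.17, adjusted p = 0.00981).

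Of the mitochondrial subunits of complex IV, which carry the catalytic centres, mt-Co3 (0.90 ± 0.33, adjusted p = 0.0271) and mt-Co2 (0.75 ± 0.31, 0.0492) rose in control LE and mt-Co1 was not called (0.37 ± 0.35, 0.418). Of its 14 nuclear subunits tested, 9 fell and 1 rose. The one that rose was Cox7a2l, with 673, 481, 320 and 212 CPM in mice 11, 14, 15 and 16 at D3.5 and 79.9, 128 and 222 CPM at D0.5 (1.57 ± 0.29, adjusted p = 6.36e-05). Cox7b, a small structural subunit, measured 49.9, 50.7, 35.0 and 20.3 CPM at D3.5 and 51.0, 84.6 and 147 CPM at D0.5 (-1.17 ± 0.33, adjusted p = 0.00530). Ndufa4, first assigned to complex I and since placed in complex IV, measured 114, 86.7, 55.3 and 53.7 CPM at D3.5 and 119, 157 and 255 CPM at D0.5 (-1.05 ± 0.26, adjusted p = 0.00212). Neither of these overlapped between days. Cox5a, a matrix-side subunit, measured 107, 68.3, 62.1 and 42.7 CPM at D3.5 and 103, 154 and 198 CPM at D0.5 (-1.10 ± 0.27, adjusted p = 0.00156), with mouse 11 alone reaching the D0.5 range. Cox6a1, Cox6b1, Cox7a1, Cox7a2, Cox7c and Cox8a also fell, by 0.70 to 1.41 on the log2 scale. In complex V neither mt-Atp6 (0.33 ± 0.30, adjusted p = 0.392) nor mt-Atp8 (0.40 ± 0.24, 0.177) was called. Of 17 nuclear ATP synthase genes 2 fell: Atp5mpl (-0.82, 0.0495), a small membrane subunit, and Atp5b, the catalytic β subunit, with 582, 582, 511 and 330 CPM at D3.5 and 568, 739 and 962 CPM at D0.5 (-0.51 ± 0.21, 0.0465).

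**Figure D2:**
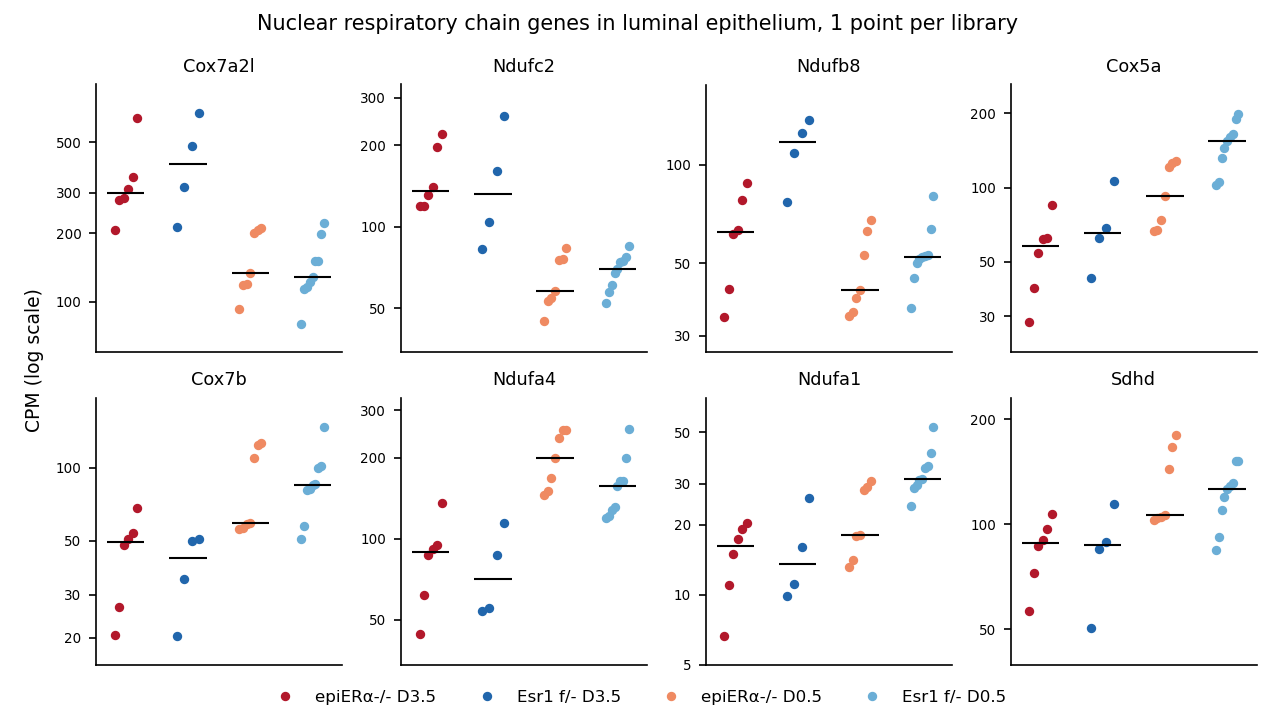
Normalised level (CPM, log axis) of 8 nuclear respiratory genes in each LE library, grouped by genotype and day; each point is a mouse and each line a group median. Cox7a2l and Ndufc2 are higher and Cox7b, Ndufa4 and Cox5a lower at D3.5 than at D0.5 in both genotypes.

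The counts in control LE leaned on single mice. Without mouse 16, 6 mitochondrial genes were called higher and 5 nuclear genes lower, and without mouse 11 the counts were 8 and 24. Without mouse 15, 9 or 8 the nuclear genes called lower numbered 6, 7 or 10. The number of nuclear genes called higher was 3 whichever mouse was left out. Endothelial and erythroid markers were also higher at D3.5 than at D0.5, though mouse 15 lay within the D0.5 range of the endothelial sum. The summed endothelial markers were 162, 78.0, 41.0 and 139 CPM in mice 11, 14, 15 and 16 at D3.5 and 7.45 to 68.6 CPM at D0.5, with 5 of 8 called higher, and the summed erythroid markers were 2688, 520, 506 and 607 CPM at D3.5 and 8.90 to 111 CPM at D0.5, with 5 of 5 tested called higher. Their part in the result was not tested.

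In knockout LE the mitochondrial genes did not pass the test between days. Of 79 nuclear genes 12 fell and 2 rose at D3.5. Of 13 mitochondrial genes 0 were called by edgeR and 0 by DESeq2 or by limma on TPM values. In edgeR's fit 0 of the 13 reached an unadjusted p under 0.05, beside 7685 of all 15601 genes tested. In all 14 of 92 members were called (15.2%), against 41.6% of all genes tested, 21.4% higher and 20.2% lower, so the nuclear counts in both directions lay under the background. Of the calls over all genes 51.4% were higher, or 77.8% on the TPM scale. All 13 mitochondrial log2 fold changes were below 0, between -0.64 and -0.12, but on the TPM scale, where the median of all genes moved by 0.38, 8 of the 13 were above 0. The nuclear median of -0.32 became 0.11 on that scale.

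The nuclear genes that led in knockout LE included Cox7a2l and Ndufc2. Ndufc2 measured 119, 136 and 219 CPM (lowest, median, highest of 6 knockout mice) at D3.5 and 45.1, 58.0 and 83.9 CPM (of 7 knockout mice) at D0.5 (1.28 ± 0.21, adjusted p = 2.23e-05), with no overlap. Cox7a2l measured 207, 299 and 641 CPM at D3.5 and 92.5, 133 and 211 CPM at D0.5 (1.16 ± 0.28, adjusted p = 0.00139), and only the lowest D3.5 mouse met the D0.5 range. Ndufa4 fell with no overlap, with 44.3, 89.1 and 136 CPM at D3.5 and 145, 200 and 254 CPM at D0.5 (-1.23 ± 0.24, adjusted p = 0.000151). Cox7b (-0.91 ± 0.29, 0.0137), Cox5a (-0.81 ± 0.24, 0.00810) and the complex III subunits Uqcrq (-0.87 ± 0.30, 0.0208) and Uqcrc1 (-0.55 ± 0.17, 0.0111) fell with overlap of the days, as did Atp5g3, an isoform of the rotor ring subunit c (-0.68 ± 0.24, 0.0238). Sdhd measured 56.4, 88.3 and 107 CPM at D3.5 and 103, 106 and 180 CPM at D0.5 (-0.61 ± 0.19, adjusted p = 0.0114), and Sdhc changed by -0.56 ± 0.19 (0.0172). On the TPM scale 8 nuclear genes were called higher and 1 lower, and Ndufa4, Cox7a2l and Ndufc2 were still called in the direction given here. Without mouse 32 the nuclear genes called lower numbered 7.

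mt-Nd1 in knockout LE measured 2574, 3676 and 5763 CPM at D3.5 and 2654, 4816 and 6621 CPM at D0.5 (-0.28 ± 0.28, adjusted p = 0.446). mt-Cytb measured 4905, 6717 and 11457 CPM at D3.5 and 5318, 8095 and 11829 CPM at D0.5 (-0.23 ± 0.25, adjusted p = 0.497). For both genes the days overlapped almost wholly.

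**Figure D3:**
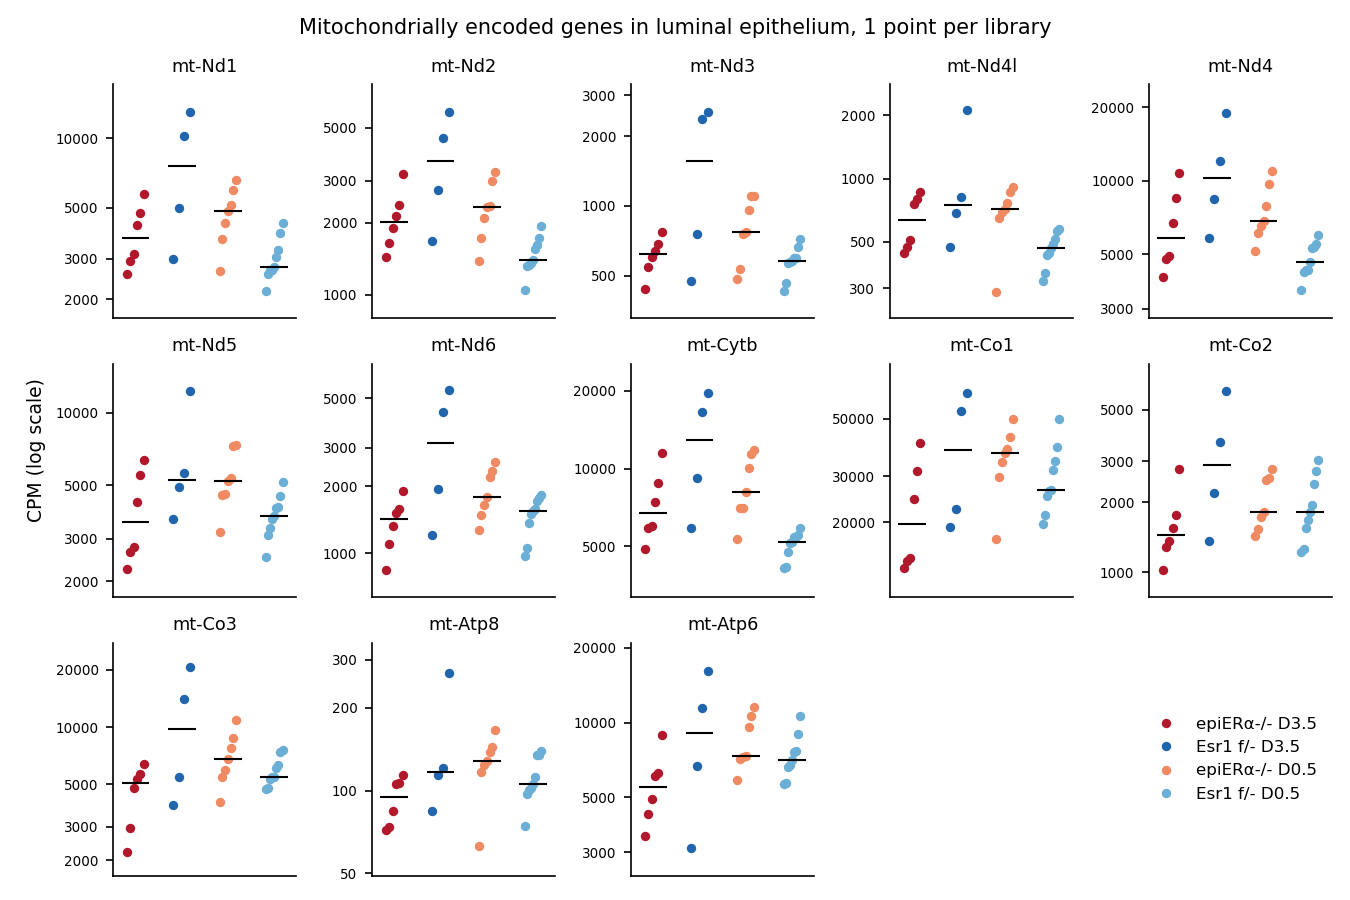
Normalised level (CPM, log axis) of the 13 mitochondrial genes in each LE library, grouped by genotype and day; each point is a mouse and each line a group median. Control mice 11 and 16 at D3.5 are the highest in most panels, and the control mice at D0.5 are among the lowest.

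The genotypes were compared within each day in LE to see which respiratory RNAs differ between knockout and control mice. At D3.5 5 mitochondrial genes were lower in knockout than in control LE, and 1 nuclear gene of 79 was. In all 6 of 92 members were called (6.52%), against 13.5% of all genes tested, 7.79% higher and 5.70% lower. The 13 mitochondrial log2 fold changes were all below 0 (median -0.79, range -1.33 to -0.66), on the TPM scale too (median -0.29, with 0 of 13 called), and the nuclear median was -0.14, or 0.34 on the TPM scale, where the median of all genes moved by 0.38, 90.2% of the calls over all genes were higher (57.7% in edgeR's fit) and 4 nuclear genes were called higher.

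mt-Nd3 measured 767, 638, 682, 437, 544 and 603 CPM in knockout mice 31, 32, 34, 35, 36 and 37, against 2547, 753, 476 and 2367 CPM in control mice 11, 14, 15 and 16 (-1.33 ± 0.32, adjusted p = 0.00584). mt-Nd1 measured 5763, 4731, 4195, 2574, 3157 and 2946 CPM in those knockout mice, against 10240, 4982, 3003 and 13058 CPM in the control mice (-1.01 ± 0.32, adjusted p = 0.0343). Control mice 11 and 16 lay above every knockout mouse in both genes, and control mice 14 and 15 lay within the knockout range. mt-Nd6 was lower by a log2 fold change of -1.23 ± 0.31 (adjusted p = 0.00709), mt-Co3 by -1.27 ± 0.36 (0.0171) and mt-Co2 by -1.02 ± 0.33 (0.0419). The other 8, including mt-Cytb (-0.79, 0.0688) and mt-Nd2 (-0.80, 0.0569), were not called. Ndufb8 measured 41.6, 34.4, 88.2, 61.4, 78.3 and 63.4 CPM in knockout mice and 137, 125, 109 and 77.3 CPM in control mice (-0.87 ± 0.24, adjusted p = 0.0159). For Ndufb8 control mouse 16 alone fell within the knockout range.

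Without control mouse 11 the count of members called was 0. The count of mitochondrial genes called was 2 without control mouse 16, 10 without control mouse 15 and 3 without knockout mouse 35, 36 or 37. The mitochondrial share of all counts was 12.2%, 10.1%, 7.25%, 4.79%, 5.98% and 5.52% in knockout mice 31, 32, 34, 35, 36 and 37 and 15.0%, 8.03%, 5.43% and 16.7% in control mice 11, 14, 15 and 16. Summed endothelial markers were 190 and 379 CPM in knockout mice 31 and 32 and 19.1 to 46.1 CPM in mice 34, 35, 36 and 37, against 41.0 to 162 CPM in control mice, with their part in the result not tested.

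At D0.5 3 mitochondrial genes were higher in knockout than in control LE, and 3 nuclear genes were lower. This was 6 of 92 members, against 23.6% of all genes tested, 10.9% higher and 12.6% lower. All 13 mitochondrial log2 fold changes were above 0 (median 0.50). mt-Cytb measured 5318, 8095 and 11829 CPM (lowest, median, highest) in 7 knockout mice and 4132, 5197 and 5864 CPM in 9 control mice (0.77 ± 0.23, adjusted p = 0.0131). mt-Nd2 (0.64 ± 0.22, 0.0340) and mt-Nd4 (0.66 ± 0.23, 0.0384) were the others called. Cox5a measured 66.4, 92.2 and 128 CPM in knockout and 103, 154 and 198 CPM in control mice (-0.64 ± 0.22, adjusted p = 0.0317). Ndufa1 measured 13.1, 18.1 and 31.0 CPM in knockout and 24.1, 31.6 and 53.0 CPM in control mice (-0.67 ± 0.24, 0.0433), and the muscle isoform Cox7a1 0.518, 0.675 and 1.26 CPM in knockout and 0.526, 2.16 and 3.11 CPM in control mice (-1.18 ± 0.40, 0.0338). For every one of these the genotypes overlapped. The mitochondrial count was 1 without control mouse 3, 5, 6, 7 or 8 or without knockout mouse 22, 23 or 27, and 5 without knockout mouse 26; mt-Cytb was called in each alternative. The nuclear count was 0 without control mouse 6 or 8 or without knockout mouse 21, 22 or 23, and 1 without control mouse 9 or knockout mouse 24. Summed neutrophil markers were 981 to 3772 CPM in knockout and 18.9 to 427 CPM in control LE at D0.5, and summed epithelial markers 3874 to 6431 CPM in knockout and 8189 to 14884 CPM in control LE, with their part in the result not tested.

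The test of the difference between the day effects (knockout day effect minus control day effect in LE) called 9 mitochondrial genes lower and 0 of 79 nuclear genes, 9 of 92 members, against 16.5% of all genes tested, 9.52% higher and 6.99% lower. At an unadjusted p under 0.05 the members numbered 13 of 92, beside 4522 of all 15601 genes tested. The difference was -1.83 ± 0.41 for mt-Nd3 (adjusted p = 0.00256), -1.64 ± 0.41 for mt-Nd1 (0.00569), -1.60 ± 0.39 for mt-Nd6 (0.00529), -1.57 ± 0.37 for mt-Cytb (0.00373), -1.54 ± 0.46 for mt-Co3 (0.0202), -1.45 ± 0.36 for mt-Nd2 (0.00570), -1.44 ± 0.38 for mt-Nd4 (0.00865), -1.27 ± 0.40 for mt-Nd4l (0.0298) and -1.24 ± 0.41 for mt-Nd5 (0.0355). mt-Co1, mt-Co2, mt-Atp6 and mt-Atp8 were not called (-0.99 to -0.84 for mt-Co1, mt-Atp6 and mt-Atp8, -1.08 for mt-Co2). The median difference was -1.44 over mitochondrial and 0.01 over nuclear genes, and on the TPM scale -0.92 and 0.41, with 5 mitochondrial genes called lower and 2 nuclear genes higher, and with 79.8% of the calls over all genes higher (57.7% in edgeR's fit).

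The mitochondrial over nuclear ratio of summed TPM, a value within each library that no scaling between libraries can move, was 4.81, 6.61 and 16.2 (lowest, median, highest) in knockout LE at D3.5 and 13.3, 7.39, 7.34 and 36.9 in control mice 11, 14, 15 and 16. At D0.5 it was 3.37, 9.74 and 15.8 in knockout and 4.21, 5.91 and 11.2 in control LE. All 4 groups overlapped. In DU the ratio lay between 2.58 and 5.10, and in U between 2.25 and 5.48.

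**Figure D4:**
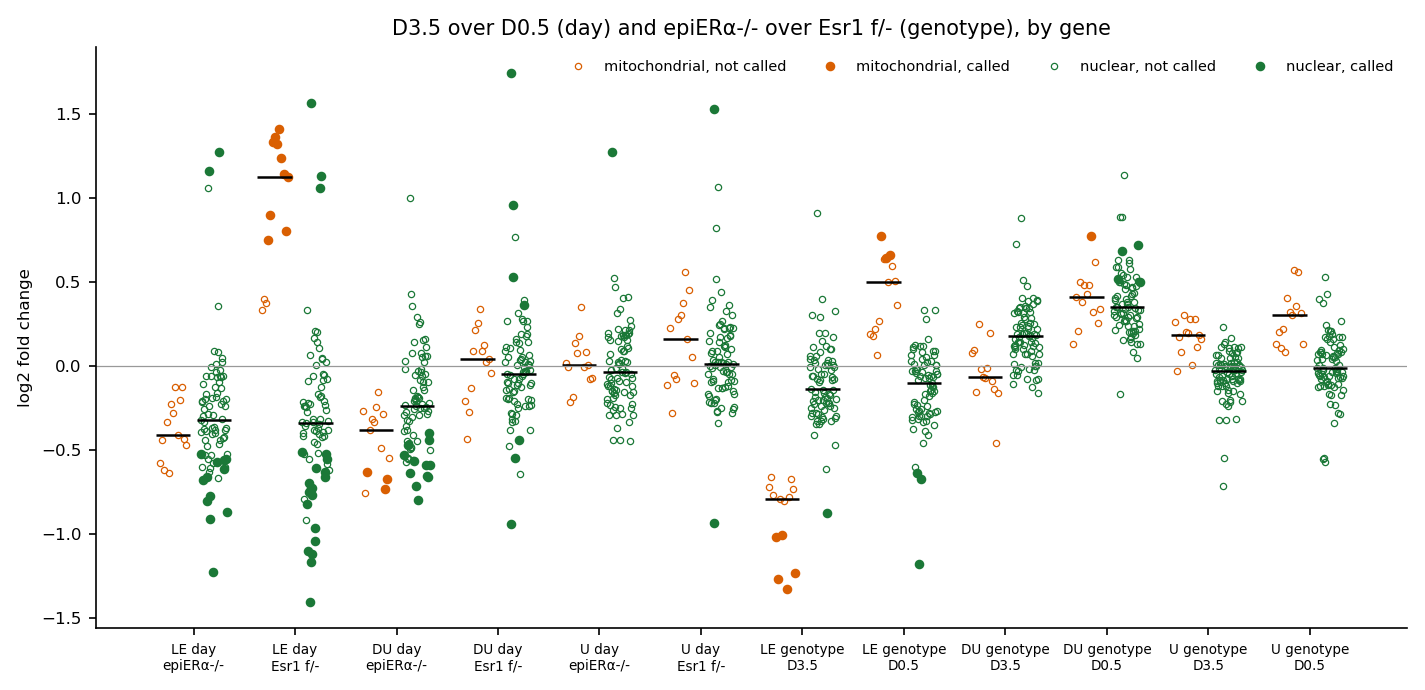
Log2 fold change of each mitochondrial and nuclear respiratory gene tested, for the 6 comparisons of D3.5 with D0.5 and the 6 of knockout with control; filled points passed an adjusted p of 0.05 and lines are medians. The mitochondrial genes of control LE lie above 0 between days (median 1.13), and those of LE at D3.5 lie below 0 between genotypes (median -0.79).

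Few of these genes were called between genotypes in the digested and undigested uterus. In U at D3.5 edgeR called 0 of 95 members, with 0 at an unadjusted p under 0.05, against 0.0185% of all genes tested, and in U at D0.5 it called 0, with 1 at an unadjusted p under 0.05, against 4.98%. In DU at D3.5 it called 0 of 94, with 4 at an unadjusted p under 0.05, against 0.574%. DESeq2 and limma on TPM called 0 in each of these. Over all genes tested, an unadjusted p under 0.05 was held by 682 of 16232 in U at D3.5 and by 2629 at D0.5. In DU at D3.5 it was held by 1319 of 16194. In DU at D0.5 5 members were higher in knockout than in control mice, against 8.06% of all genes tested, 3.89% higher and 4.17% lower. An unadjusted p under 0.05 was held by 42 of 94 members, beside 3948 of all 16194 genes tested. Called or not, 13 of 13 mitochondrial and 80 of 81 nuclear log2 fold changes were above 0 in edgeR's fit. Their medians were 0.41 and 0.35, beside 0.006 over all genes. mt-Nd3 measured 512, 602 and 432 CPM in knockout mice 25, 26 and 27 and 262, 321, 241 and 380 CPM in control mice 1, 5, 8 and 9 (0.78 ± 0.18, adjusted p = 0.0202). Cox6c, a small subunit of complex IV, measured 192, 254 and 204 CPM in knockout and 115, 117, 130 and 179 CPM in control mice (0.68 ± 0.17, 0.0267). Uqcr10 (0.72 ± 0.19, 0.0386) and the hinge protein Uqcrh (0.50 ± 0.13, 0.0368) of complex III and Atp5md (0.52 ± 0.14, 0.0384) were the others. The genotypes did not overlap in any of the 5. Over all members, called or not, 5 of 13 mitochondrial and 13 of 85 nuclear genes did not overlap in this comparison. The share over all genes was not counted. On the TPM scale 0 were called and 24.9% of the calls over all genes were higher (48.2% in edgeR's fit), and DESeq2 called 13. Without knockout mouse 26 the count was 0, without control mouse 5 or knockout mouse 25 or 27 it was 1, without control mouse 1 or 8 it was 2 or 3, and without control mouse 9 it was 15. In the same comparison 19 of 81 cytosolic ribosomal protein genes were higher (median 0.58).

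Between days, Cox4i2 rose in control U, knockout U and control DU. In control U it measured 3.01, 5.31, 4.78, 7.85 and 3.77 CPM in mice 11, 12, 13, 14 and 16 at D3.5 and 0.663, 1.82 and 2.28 CPM (lowest, median, highest of 6) at D0.5 (1.53 ± 0.32, adjusted p = 0.000913), with no overlap. In knockout U it measured 3.83, 3.68, 7.22, 6.23 and 5.66 CPM in mice 32, 33, 34, 35 and 37 at D3.5 and 1.40, 2.89, 2.67 and 1.78 CPM in mice 21, 25, 26 and 27 at D0.5 (1.27 ± 0.36, 0.0126; 1.36 and 0.0115 without the library labelled knockout mouse 33), again with no overlap. In control DU it measured 2.83, 3.48 and 4.31 CPM in mice 11, 14 and 16 at D3.5 and 0.904, 0.523, 1.38 and 1.42 CPM in mice 1, 5, 8 and 9 at D0.5 (1.74 ± 0.40, 0.00430), without overlap. In knockout DU it measured 2.78, 4.68 and 4.28 CPM in mice 32, 34 and 35 at D3.5 and 1.36, 2.90 and 1.59 CPM in mice 25, 26 and 27 at D0.5, with overlap, and was not called (1.00 ± 0.43, 0.0936). The members called numbered 2 of 95 in control U, against 34.2% of all genes tested (16.2% higher, 18.0% lower), and 1 in knockout U, against 25.5% (10.9% higher, 14.6% lower). They numbered 7 of 94 in control DU, against 34.4% (15.9% higher, 18.5% lower), and 15 in knockout DU, against 30.2% (12.9% higher, 17.3% lower). On the TPM scale the share of calls over all genes that were higher was 60.5% in control U, 58.2% in knockout U, 63.7% in control DU and 68.0% in knockout DU, against 47.4%, 42.8%, 46.2% and 42.7% in edgeR's fit.

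Cox5a was the other called gene of control U, where it fell, with 39.5, 46.2, 43.1, 79.1 and 60.2 CPM at D3.5 and 64.7, 106 and 146 CPM at D0.5 (-0.94 ± 0.26, adjusted p = 0.00772); mouse 14 alone lay within the D0.5 range. In control DU Cox5a measured 35.3, 43.4 and 40.4 CPM at D3.5 and 57.8, 80.3, 88.5 and 79.1 CPM at D0.5 (-0.94 ± 0.17, 0.000761). Cox8a (-0.55 ± 0.17, 0.0222) and Ndufa6 (-0.44 ± 0.16, 0.0486) also fell in control DU, and Cox6b2 (0.96 ± 0.32, 0.0324), Cox6c (0.53 ± 0.17, 0.0265) and Ndufs1, the largest complex I subunit (0.36 ± 0.09, 0.00919), rose, with no overlap in any of these. Called or not, 2 of 13 mitochondrial and 11 of 85 nuclear members did not overlap between days in control DU, and the share over all genes was not counted. Without control mouse 14 or 16 the members called in control DU numbered 3.

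In knockout DU all 15 called members fell: 3 mitochondrial and 12 nuclear. mt-Nd5 measured 1717, 1605 and 1403 CPM in mice 32, 34 and 35 at D3.5 and 2918, 2449 and 2172 CPM in mice 25, 26 and 27 at D0.5 (-0.67 ± 0.16, adjusted p = 0.00654). mt-Co1 (-0.63 ± 0.18, 0.0175) and mt-Nd4l (-0.73 ± 0.25, 0.0418) were the other mitochondrial genes. Sdhd measured 73.8, 65.8 and 69.7 CPM at D3.5 and 90.0, 134 and 106 CPM at D0.5 (-0.66 ± 0.14, 0.00359). The complex III subunits Uqcrh (-0.59 ± 0.14, 0.00728) and Uqcrb (-0.66 ± 0.17, 0.0115), Ndufa4 (-0.71 ± 0.19, 0.0119), the complex I subunits Ndufb1 (-0.80 ± 0.29, 0.0492) and Ndufv3 (-0.59, 0.0370) and the γ subunit Atp5c1 (-0.53 ± 0.16, 0.0266) fell with them, and among the called genes Ndufb1 alone overlapped between days. Called or not, 6 of 13 mitochondrial and 30 of 85 nuclear members did not overlap between days in knockout DU, and the share over all genes was not counted. On the TPM scale 1 of the members was called lower and 2 higher in knockout DU, and without mouse 34, 32, 26 or 27 the members called numbered 5, 7, 9 or 9. The difference of the day effects between genotypes called 0 of 95 members in U, against 1.43% of all genes tested. In DU it called 0 of 94, against 1.88%. At an unadjusted p under 0.05 the members numbered 0 in U and 6 in DU. Over all genes tested these numbers were 1684 of 16232 in U and 2546 of 16194 in DU. DESeq2 called 0 members in U and 1 in DU, and limma on TPM called 0 in both.

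Across tissues, all 13 mitochondrial genes were higher in LE than in U, while the nuclear genes went both ways. Values here are CPM normalised over all 59 libraries, and this fit did not use which samples came from the same mouse. mt-Co1 measured 15631, 34764 and 72414 CPM (lowest, median, highest of 26) in LE and 7773, 10129 and 13220 CPM (of 20) in U (1.84 ± 0.14, adjusted p = 8.39e-17). mt-Nd5 measured 2626, 4937 and 14145 CPM in LE and 1452, 2114 and 2621 CPM in U (1.47 ± 0.12, 2.88e-15). These did not overlap between tissues, and the remaining 11 mitochondrial genes did, with log2 fold changes of 0.94 for mt-Nd2 to 1.70 for mt-Co2. In all 43 of 95 members were called (45.3%), against 67.0% of all genes tested (32.2% higher, 34.8% lower), and the median was 1.36 over mitochondrial and -0.09 over nuclear genes. With mouse as a replicate block, over the 17 mice with both samples, all 13 mitochondrial genes were higher (mt-Co1 1.66, adjusted p = 2.06e-07). In that edgeR fit 9 nuclear genes were higher and 27 lower, against 4980 higher and 5955 lower of 16631 genes tested. Against DU the 13 mitochondrial genes were also all higher in LE (median 1.52), among 51 members called, against 66.5% of all genes tested (32.9% higher, 33.7% lower). On the TPM scale the share of calls over all genes that were higher was 31.1% in LE against U and 21.6% in LE against DU (48.0% and 49.4% in edgeR's fit).

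Of 82 nuclear genes 11 were higher and 19 lower in LE than in U; on the TPM scale, where the median of all genes moved by -0.19, the numbers were 2 and 58, and the number lower was 12 without mouse 4 or 16 and 9 without mouse 25 or 34. Ndufc2 measured 50.9, 86.8 and 284 CPM in LE and 28.5, 59.2 and 94.5 CPM in U (0.93 ± 0.12, adjusted p = 9.40e-10). Cox5a measured 34.1, 112 and 223 CPM in LE and 24.5, 56.9 and 126 CPM in U (0.71 ± 0.12, 1.45e-06), and Sdhd was higher by 0.44 ± 0.09 (1.40e-05). Cox6c was lower, with 56.9, 108 and 180 CPM in LE and 112, 222 and 436 CPM in U (-1.05 ± 0.13, 4.87e-10), and so was Ndufa5, a complex I accessory subunit (-0.91 ± 0.15, 9.31e-07). Among isoforms, Cox4i2 measured 0, 0.182 and 1.11 CPM in LE and 0.588, 2.72 and 7.14 CPM in U (-3.66 ± 0.31, 3.16e-15). Cox6b2 was lower in LE by a log2 fold change of -2.64 ± 0.31 (1.16e-10). The isoform Cox8b was at a median of 0 CPM in LE, against 0.554 CPM in U. All of these overlapped between tissues. In LE against DU 33 nuclear genes were higher and 5 lower, but on the TPM scale, where the median of all genes moved by -0.36, 3 were higher and 35 lower, and without mouse 11 21 were higher and 5 lower. With mouse as a replicate block, over the 13 mice with both samples, 57 nuclear genes were higher and 5 lower, against 67.8% of all genes tested, 31.8% higher and 36.0% lower.

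DU and U differ by the dispase digestion and by RNA isolation batch. The fit of all libraries called 0 of 95 members, against 0.00586% of all genes tested. In that fit 62 members had an unadjusted p under 0.05, beside 3209 of all 17057 genes tested. DESeq2 called 2 members and limma on TPM 1. With mouse as a replicate block, over the 13 mice that gave both pieces, 78 members were lower in DU than in U, 75 of 82 nuclear and 3 of 13 mitochondrial (mt-Nd1, mt-Nd3 and mt-Co3), against 42.6% of all genes tested, 19.5% higher and 23.2% lower. The median in that paired fit was -0.49 over nuclear genes, -0.35 over mitochondrial genes and -0.02 over all genes. Sdha was among the 7 nuclear genes not called (-0.07, adjusted p = 0.244). Cytosolic ribosomal protein genes had a median of -0.45 in the fit without the block, in which 0 of 81 were called.

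**Figure D5:**
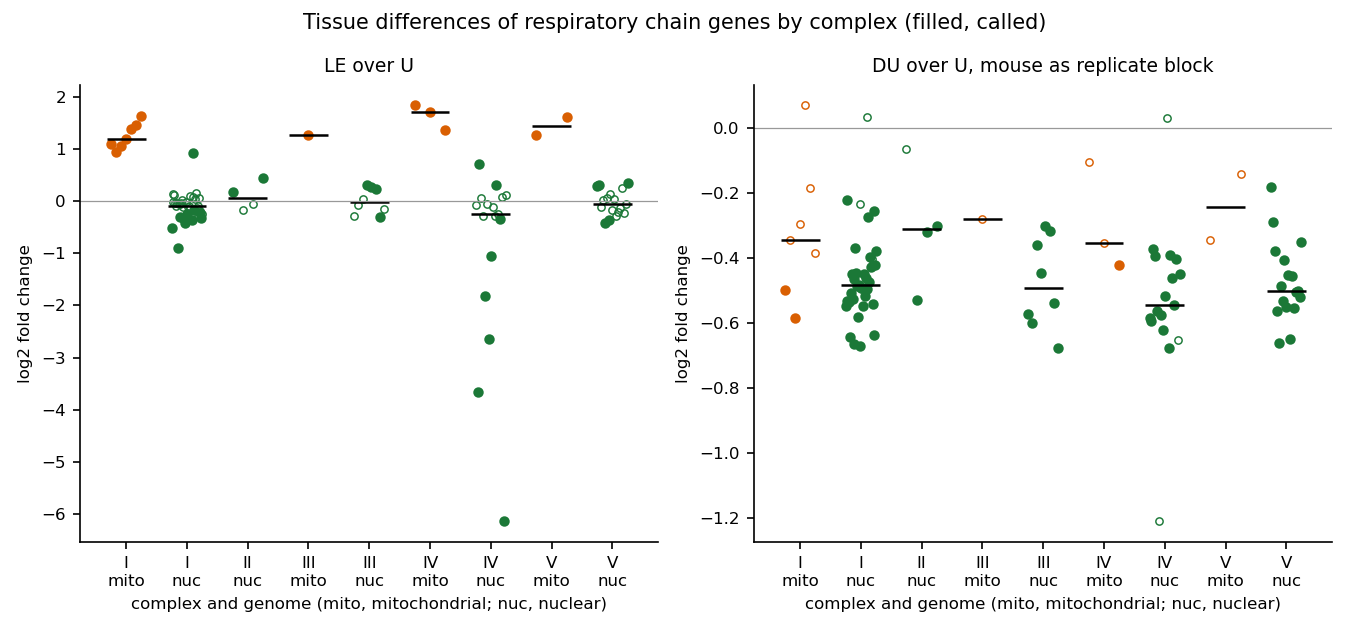
Log2 fold change of the members by complex, for LE over U (fit of 59 libraries) and for DU over U (mouse as a replicate block, 13 mice); each point is a gene, filled where called, by genome of origin. Mitochondrial genes lie at 0.94 to 1.84 in LE over U, and in DU over U 78 members are called and all of these lie below 0.

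Other genes of mitochondrial energy supply were read in LE from lists by function. The counts between days stand beside 21.4% of all genes tested higher and 20.2% lower in knockout LE, and 21.2% higher and 22.8% lower in control LE. Glycolysis and lactate dehydrogenase genes fell at D3.5 in both genotypes: 14 of 16 in knockout LE with 1 that rose (median -2.21), and 13 of 16 in control LE (median -1.92). Pgk1, phosphoglycerate kinase, averaged 81.4 ± 19.1 CPM at D3.5 and 775 ± 212 CPM at D0.5 in control LE (SD, n = 4 and 9; log2 fold change -3.25 ± 0.30, adjusted p = 2.24e-09). Of 16 genes of the TCA cycle and pyruvate dehydrogenase, 5 fell and 2 rose in knockout LE, and 9 fell and 1 rose in control LE. Suclg2, a subunit of succinyl-CoA ligase, averaged 35.6 ± 9.30 CPM at D3.5 and 76.4 ± 14.8 CPM at D0.5 in control LE. In U and DU, where 14.6% to 18.5% of all genes tested were lower, 13 or 14 of the glycolysis genes were lower at D3.5 in each genotype.

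The same backgrounds apply to the following lists. Of 16 genes that copy and transcribe mitochondrial DNA, 3 rose and 0 fell at D3.5 in knockout LE, and 3 rose and 1 fell in control LE. Polrmt, the mitochondrial RNA polymerase, averaged 30.9 ± 7.52 CPM at D3.5 and 18.5 ± 3.14 CPM at D0.5 in control LE (0.74 ± 0.16, adjusted p = 0.000366). Tfb1m, which methylates mitochondrial ribosomal RNA, averaged 11.8 ± 4.37 and 5.84 ± 0.694 CPM on those days (1.01 ± 0.19, 8.46e-05). Between genotypes 0 of the 16 were called in LE on either day. Lrpprc, which stabilises mitochondrial messenger RNAs, fell at D3.5 in knockout LE, with 35.8 ± 4.70 CPM at D3.5 and 55.1 ± 10.6 CPM at D0.5 (SD, n = 6 and 7; -0.62 ± 0.14, adjusted p = 0.000787). Of 43 assembly factors 5 rose and 3 fell in knockout LE and 6 rose and 4 fell in control LE, and of 78 mitochondrial ribosomal protein genes 4 rose and 6 fell in knockout LE and 6 rose and 5 fell in control LE.

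Among 12 tested regulators of respiratory genes, 2 were lower in knockout than in control LE at D3.5, against 5.70% of all genes tested. Esrra, the oestrogen-related receptor α, averaged 49.2 ± 13.9 CPM in knockout and 96.6 ± 22.8 CPM in control LE (SD, n = 6 and 4; -0.97 ± 0.23, adjusted p = 0.00566), and Gabpb1, a subunit of GABP, 26.9 ± 4.35 and 38.5 ± 8.98 CPM (-0.52 ± 0.16, 0.0313). At D0.5 3 were higher in knockout LE, against 10.9% of all genes tested, among them Ppargc1a, the coactivator PGC-1α, with 14.6 ± 4.78 CPM in knockout and 3.87 ± 1.50 CPM in control LE (n = 7 and 9; 1.91 ± 0.40, adjusted p = 0.000763). Cycs, the electron carrier cytochrome c, fell at D3.5 in knockout LE, with 28.4 ± 9.60 CPM at D3.5 and 64.7 ± 25.4 CPM at D0.5 (-1.19 ± 0.27, 0.000877).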

How the data were processed

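RNA of 59 uterine samples of 29 mice was sequenced. The authors deposited estimated counts and TPM values (scaled for transcript length and library size) for the same 21706 genes; the submitters' processing notes name kallisto 0.46.1 and GRCm39. The annotation, any poly(A) selection and the use of strand are not given in the sources used here. RNA of a tissue was extracted together, per the labels' protocols.

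The members and gene lists were chosen with earlier results of these data known. Samples were grouped by their titles. Estimated counts were rounded and tested with edgeR 4.0.16's quasi-likelihood test (R 4.3.3; TMM; filterByExpr with a minimum count of 10 and total of 15), fitted per tissue over 4 groups, or over all 12 groups for tissues, with Benjamini-Hochberg adjustment over all genes tested and calls at 0.05; SE is that of the log2 fold change. Alternatives were DESeq2 size factors, mt- genes left out of library sizes, no filter, DESeq2 1.42.0's Wald test, limma 3.58.1 on log2(TPM + 1) for genes averaging 1 TPM or more, mouse as a replicate block between tissues, each mouse left out, and knockout LE mice 35, 36 and 37 left out. A fold change on the log2(TPM + 1) scale understates changes of low genes. The fits were tested on simulated data.

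The text names all mitochondrial genes, Sdha to Sdhd, the isoforms of complex IV, and per comparison, of nuclear members called with at least 10 CPM in the higher group, the 3 highest and 3 lowest fold changes and the smallest adjusted p of complexes I, III and V, and up to 3 called genes per other list; further genes were named after their values were seen. Same mouse numbers are the same animals per the labels; deviations from group means correlated with a median r of 0.329 (LE and U, 17 mice), 0.400 (DU and U, 13 mice) and 0.153 (LE and DU, 13 mice). No 2 libraries agreed within sampling noise (134 pairs within groups). For genes with many counts, counting error is only a small part of the spread, and p-values of the fits within a tissue measure the spread between mice. In the fit of all 59 libraries, libraries of the same mouse entered as separate units, so its p-values do not measure that spread alone. For low genes such as Cox7a1 (lowest count 6) and Cox4i2 (0 in 4 of 59 libraries) counting error is a larger part.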

Additional observations from a re-analysis of the deposited data

Results flagged for a closer look

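In LE the day effect of 9 mitochondrial genes differed between genotypes by the test of the difference itself (knockout D3.5 minus D0.5, minus the same in control mice, edgeR's quasi-likelihood test with Benjamini-Hochberg adjustment). The log2 differences were -1.83 for mt-Nd3, -1.64 for mt-Nd1, -1.60 for mt-Nd6, -1.57 for mt-Cytb, -1.54 for mt-Co3, -1.45 for mt-Nd2, -1.44 for mt-Nd4, -1.27 for mt-Nd4l and -1.24 for mt-Nd5. All 7 mitochondrial subunits of complex I are among them. No nuclear member was called by that test. With limma on the TPM scale 5 mitochondrial genes were called lower and 2 nuclear genes higher. The genotype comparison at D3.5, which enters this test, leaned on single control mice, as given above. The mitochondrial over nuclear ratio within libraries overlapped between all groups of LE. Of 27 checks for a mouse far from its group in the mitochondrial, nuclear and ratio sums, 0 met the 95% criterion. Groups of 3 mice, all in DU, were not checked. In a group of 4 mice only an extreme gap can meet the criterion, so the checks do not show that no mouse lay apart.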

How the results depend on the processing

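Members called under other settings, beside the number reported, were as follows. DESeq2's Wald test called 13 in knockout against control DU at D0.5 (5 reported), 24 in D3.5 against D0.5 in knockout LE (14), 2 in knockout U (1) and 23 in knockout DU (15), 1 for the genotype-by-day difference in DU (0) and 2 in DU against U (0). DESeq2 size factors gave 2 in knockout U (1). Limma on log2(TPM + 1) called 0 in DU at D0.5 (5), 9 in knockout LE (14), 15 in control U (2), 6 in knockout U (1), 3 in knockout DU (15), 73 in LE against U (43) and 1 in DU against U (0). On that scale the median of all genes moved by 0.38 between genotypes in LE at D3.5 and between days in knockout LE, by 0.35 for the difference of day effects in LE, by 0.18 and 0.17 between days in knockout and control DU, by 0.15 and 0.11 in control and knockout U, by 0.17 for DU against U, by -0.19 for LE against U and by -0.36 for LE against DU; the share of calls that were higher in the difference of day effects in DU was 63.5% (50.3% reported). With mouse as a replicate block 78 members were called in DU against U (0); in this paired fit the members called higher in LE against DU numbered 70 (46), and the count in LE against U moved by less than 1.5 times. Knockout LE mice 35, 36 and 37 had stood apart in an earlier description of other genes and also had the lowest mitochondrial shares of the 6, so that a smaller mitochondrial count without them follows from the choice; without these mice the counts were 2 between genotypes in LE at D3.5 (6), 33 between days in knockout LE (14) and 3 for the difference of day effects (9).

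With 1 mouse left out at a time, members called ranged over 14 to 35 between days in control LE, 9 to 19 in knockout LE, 3 to 7 in control DU, 5 to 15 in knockout DU and 1 to 2 in knockout U, and between genotypes over 0 to 11 in LE at D3.5, 1 to 9 in LE at D0.5 and 0 to 15 in DU at D0.5. Among members called as reported, the direction turned on the TPM scale for 23 values, all between tissues and all higher in LE as reported; members not called turned between days in LE too. Against U these were Sdha (-0.088), Uqcrfs1 (-0.043), Cox7a2l (-0.000693) and Uqcrc2 (-0.00736). Against DU they were Sdha (-0.23), Ndufa9 (-0.21), Ndufa10 (-0.19), Ndufa6 (-0.18), Atp5o (-0.16), Cox8a (-0.13), Cox6b1 (-0.13), Atp5j (-0.12), Ndufs3 (-0.11), Ndufa13 (-0.10), Cox4i1 (-0.10), Ndufa2 (-0.092), Uqcrq (-0.088), Ndufa11 (-0.077), Atp5a1 (-0.056), Atp5g3 (-0.063), Ndufa4 (-0.047), Atp5d (-0.00768) and Uqcrfs1 (-0.00601). The cause was not tested. The TPM sums over these genes differ between libraries, and the 4 control LE mice at D3.5 limit every LE comparison that uses them.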
